A study of Mus musculus with 16 samples.

Results

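Oligodendrocytes, the cells that wrap axons of the brain in myelin, were followed in mouse hippocampus through 39 genes that mark their lineage, from dividing precursors to the proteins and lipid enzymes of the finished sheath. The genes were given as a list, and each was read from the probe set that carried its symbol alone and had the highest mean over the 16 arrays. By this rule 37 of the 39 genes were measured, out of 22180 genes in all. Evi2a, a membrane protein, and Trf, the iron carrier transferrin, were carried on probe sets shared with another symbol, and their levels are not reported.

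The study addressed whether status epilepticus (SE), a seizure that does not stop, alters the action of thyroid hormone in the brain and the early response of hippocampal genes. It used C57BL/6 mice of 8 to 10 weeks, and 4 groups of 4 arrays, 1 array a mouse as far as the labels tell. Astro-D2KO SE mice carried a floxed Dio2 gene and a glial cre and received pilocarpine. Astro-D2KO saline mice had the same genotype and received saline. Control SE mice carried the glial cre with a genotype given as wild type, and received pilocarpine, and Control saline mice were of that genotype and received saline. All 4 groups thus carried cre, and all were given lithium chloride at 10 mEq/kg, 18 h before pilocarpine at 65 mg/kg or before saline. Effects of SE and of pilocarpine itself cannot be told apart. For the promoter that drives cre, the sex of the mice and the time from SE to tissue collection, the labels give nothing. Expression was measured in total RNA on Affymetrix arrays, and levels are given in log2 units, in which a difference of 1 is a doubling.

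New oligodendrocytes arise from precursors that carry the receptor Pdgfra and the proteoglycan Cspg4. Precursors that leave the cell cycle pass through a short committed stage marked by Gpr17, Bcas1 and Enpp6, and the transcription factors Olig2, Sox10 and Myrf then switch on the genes of the sheath. Thyroid hormone is known to promote this step and the expression of myelin genes such as Mbp. Dio2 encodes the type 2 deiodinase, with which astrocytes turn thyroxine into its more active form, and Astro-D2KO mice carry its floxed form beside the glial cre.

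Dio2 checked the labels. Under saline its levels in the arrays numbered 1 to 4 were 6.75, 6.52, 7.09 and 6.77 in Astro-D2KO mice, against 7.87, 8.25, 8.17 and 8.28 in Control mice, 2.57-fold lower (two-sided exact permutation p = 0.0286, the smallest that 4 against 4 arrays allow). After SE they were 8.91, 7.03, 7.17 and 7.12 in Astro-D2KO mice, against 9.51, 9.11, 9.24 and 7.99 in Control mice, and the groups overlapped (exact permutation p = 0.0571). The array labelled Astro-D2KO SE 1 thus went against its label, and the array labelled Control SE 4 stood below the others of its group. At 7.99, Control SE 4 still lay within the Control saline range of 7.87 to 8.28 and above every Astro-D2KO saline array. Its Dio2 level thus did not by itself go against its label. Both arrays are called doubted below. The labels do not say whether the probe set of Dio2 lies in the floxed stretch. Whether these arrays hold the genotypes they are labelled with was not tested, and every value of the 2 SE groups is given by label. The main counts of members that use the SE groups are given with both arrays and, beside or after them, without both. A second, dim Dio2 probe set (mean 5.07) differed between genotypes by -0.09 under saline and -0.12 after SE.

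Arrays also differed in the members themselves. The array labelled Astro-D2KO SE 2 was the lowest of its group for 32 of the 37 members and the lowest of all 16 arrays for 25. The array labelled Control SE 4 was the lowest of its group for 29 members, and Astro-D2KO saline 4 was the lowest of its group for 20. The array labelled Astro-D2KO SE 1 was the highest of its group for 17 members and the lowest for 0. Leaving it out therefore lowers the group mean of those 17. In the plot of all members by array, values below the gene's mean are blue and values above it red.

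**Figure D1:**
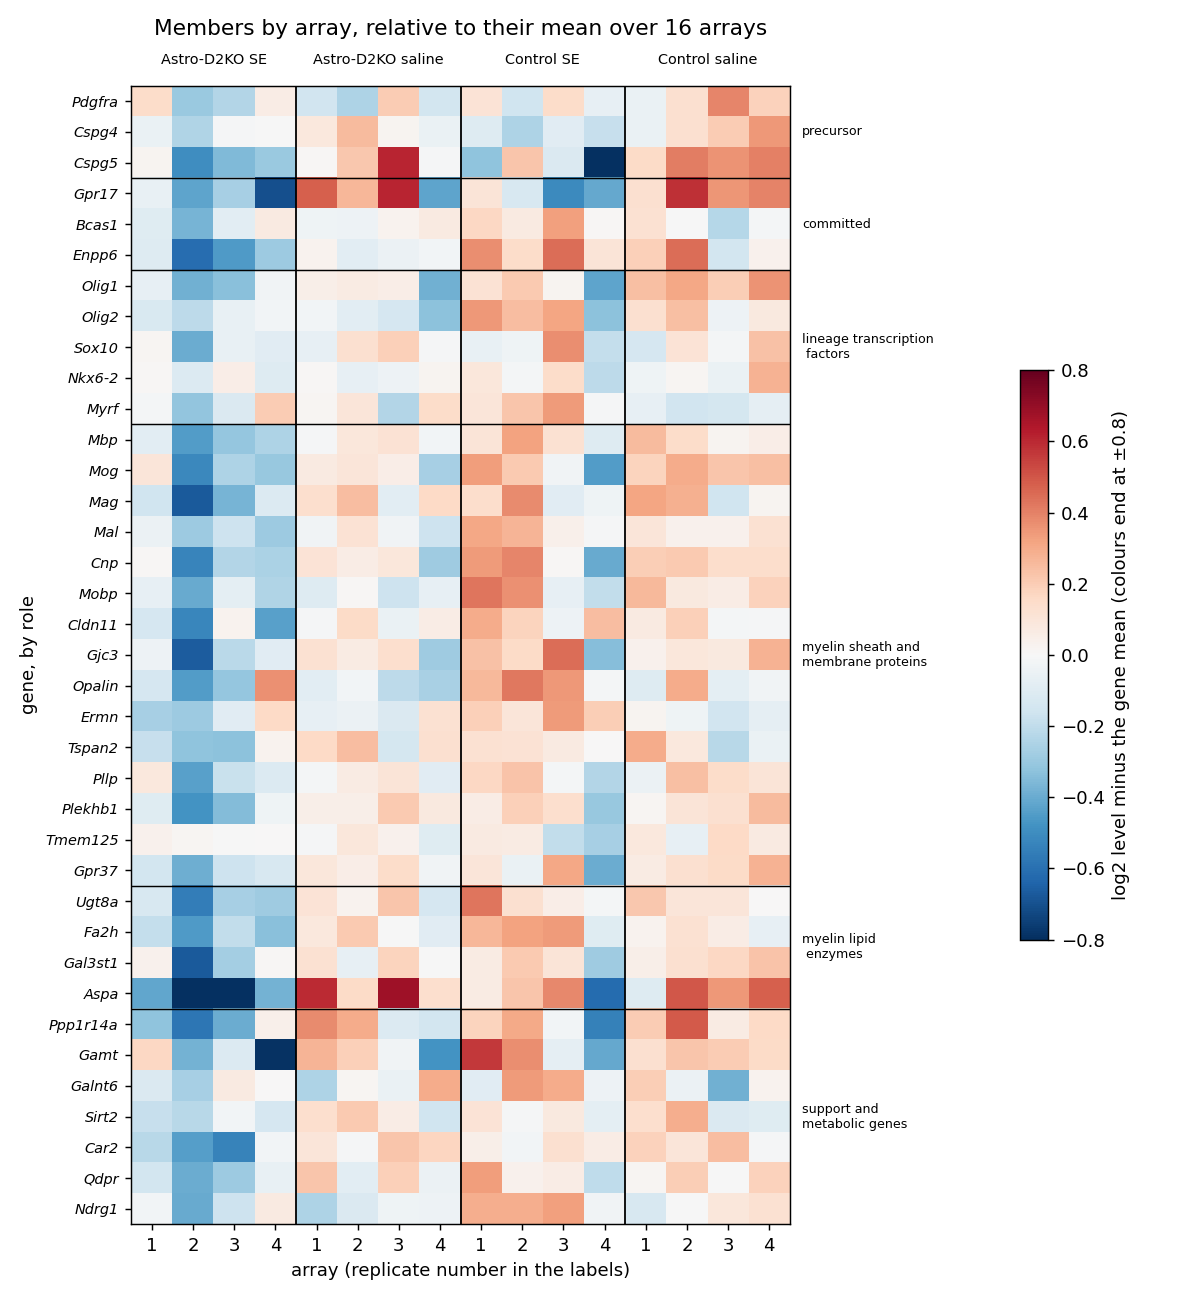
Log2 level of the 37 measured members (down the page, by role) in each of the 16 arrays (across), minus the mean of that gene over the 16 arrays. Colours end at 0.8 in either direction; most of the column of Astro-D2KO SE 2 is below the gene means, as is most of the column of Control SE 4.

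The first comparison asked what SE did to these genes in Astro-D2KO mice. Of the 37 members 8 fell and none rose, at a limma adjusted p under 0.05 over all 22180 genes. They were Aspa, Car2, Gpr17, Mag, Ugt8a, Plekhb1, Fa2h and Mbp, so that 7 of the 26 mature genes (sheath proteins, lipid enzymes and support genes), 1 of the 3 committed genes, 0 of the 3 precursor genes and 0 of the 5 transcription factors passed. In this comparison 20.1% of all genes passed in either direction, 12.6% as lower and 7.49% as higher, and the members' share of 21.6%, all lower, stood beside these. The difference was below 0 for 33 of the 37 members, with a median of -0.25, while 51.4% of all genes were below 0, with a median of -0.01. Without the array labelled Astro-D2KO SE 2 it was below 0 for 30 members, with a median of -0.14, and without both doubted arrays for 35, with a median of -0.30. All SE arrays lay below all saline arrays for 8 members (15.1% of all genes), and 15 members (40.5%) had an unadjusted p under 0.05, beside 30.8% of all genes; without both doubted arrays these counts were 11 (17.7% of all genes) and 22 (6662 of the 22180 genes). In bulk tissue fewer cells of a type and less RNA in each cell cannot be told apart.

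Of the 4 lipid enzymes of myelin, 3 fell. Aspa, which splits N-acetylaspartate so that its acetate can be used for myelin lipids, showed the largest difference of any member. Its levels in arrays 1 to 4 were 6.78, 5.96, 6.38 and 6.81 in Astro-D2KO SE mice, against 7.79, 7.34, 7.87 and 7.33 in Astro-D2KO saline mice. All SE arrays lay below all saline arrays. The fall was -1.10 ± 0.22 (log2, standard error of the fit), or 2.14-fold lower, with a limma adjusted p of 0.00162. Fa2h, which hydroxylates the fatty acids of myelin lipids, stood at 8.18, 7.92, 8.17 and 8.04 after SE, against 8.46, 8.58, 8.37 and 8.28 under saline. Again no array overlapped, and Fa2h was 1.27-fold lower (limma adjusted p = 0.0217). Ugt8a, which adds galactose to ceramide to make galactocerebroside, stood at 9.61, 9.18, 9.47 and 9.45 after SE, against 9.84, 9.76, 9.95 and 9.60 under saline, 1.29-fold lower (limma adjusted p = 0.0238). The highest SE array of Ugt8a lay within the saline range. Gal3st1, which sulphates that lipid to sulfatide, differed by -0.28 with an interval of -0.58 to 0.01 and did not pass.

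Of the 15 measured proteins of the sheath and its membranes, 3 fell. Mbp, the basic protein that holds the compacted membranes together, stood at 8.81, 8.45, 8.59 and 8.65 in Astro-D2KO SE mice, against 8.89, 8.99, 9.01 and 8.88 in Astro-D2KO saline mice. Mag, an adhesion protein of the innermost wrap that faces the axon, stood at 9.31, 8.80, 9.09 and 9.36 after SE, against 9.61, 9.71, 9.38 and 9.63 under saline. Neither gene's groups overlapped; Mbp was 1.24-fold lower (limma adjusted p = 0.0261) and Mag 1.36-fold lower (limma adjusted p = 0.0297). Plekhb1, a membrane protein with a pleckstrin homology domain, stood at 10.29, 9.91, 10.04 and 10.36 after SE, against 10.44, 10.43, 10.60 and 10.46 under saline, 1.26-fold lower with no overlap (limma adjusted p = 0.0441). Mog, which sits on the outer face of the sheath, stood at 8.94, 8.32, 8.59 and 8.53 after SE, against 8.91, 8.93, 8.89 and 8.57 under saline. For Mog the groups overlapped, and the difference of -0.23 did not pass (limma adjusted p = 0.318). Gpr37, an orphan receptor of oligodendrocytes, differed by -0.27 with no overlap between the groups and did not pass (limma adjusted p = 0.114).

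The 10 other sheath genes did not pass. They were Mal and Pllp, small proteolipids of membrane rafts, Cnp, a phosphodiesterase of non-compact myelin, Mobp, a second basic protein, Cldn11, the tight junction protein between wraps, Gjc3, a connexin, Opalin and Tmem125, transmembrane proteins, Ermn, which acts on the actin cytoskeleton, and Tspan2, a tetraspanin. Their differences lay between -0.30, for Cldn11, and 0.01, for Opalin. Among the 7 support genes Car2, the carbonic anhydrase that is abundant in oligodendrocytes, fell. Its levels were 9.48, 9.26, 9.17 and 9.68 in Astro-D2KO SE mice, against 9.80, 9.69, 9.92 and 9.88 in Astro-D2KO saline mice, 1.35-fold lower with no overlap (limma adjusted p = 0.00539). Ppp1r14a, an inhibitor of myosin phosphatase, stood at 7.34, 7.08, 7.27 and 7.70 after SE, against 8.04, 7.96, 7.55 and 7.52 under saline, a difference of -0.42 that did not pass (limma adjusted p = 0.107). The differences of Gamt, an enzyme of creatine synthesis, Galnt6, which starts O-linked glycans, Sirt2, a deacetylase, Qdpr, which recycles a pterin cofactor, and Ndrg1, needed for myelin upkeep, ran from -0.29, for Qdpr, to -0.02, for Ndrg1.

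Earlier stages of the lineage gave 1 call in Astro-D2KO mice. Gpr17, a receptor found on committed precursors, stood at 7.29, 6.93, 7.09 and 6.66 after SE, against 7.84, 7.62, 7.97 and 6.93 under saline, 1.51-fold lower (limma adjusted p = 0.0372). The fourth saline array lay within the SE range. Enpp6, a choline phosphodiesterase of newly formed oligodendrocytes, differed by -0.33 with no overlap between the groups and did not pass (limma adjusted p = 0.0707), and Bcas1, a marker of early myelinating cells, differed by -0.13. Pdgfra, the receptor through which precursors divide, stood at 8.57, 8.12, 8.18 and 8.48 after SE, against 8.27, 8.17, 8.62 and 8.27 under saline. Its difference was 0.00, with an interval of -0.27 to 0.28. Cspg4, known as NG2, stood at 6.43, 6.24, 6.47 and 6.48 after SE, against 6.56, 6.73, 6.50 and 6.43 under saline. Cspg5, neuroglycan C, stood at 9.42, 8.90, 9.04 and 9.10 after SE, against 9.41, 9.61, 10.01 and 9.38 under saline. The groups overlapped for both, and neither Cspg4 (-0.15, limma adjusted p = 0.290) nor Cspg5 (-0.49, limma adjusted p = 0.0642) passed. Cspg5 did pass with the arrays labelled Astro-D2KO SE 1 and Control SE 4 left out (-0.59, limma adjusted p = 0.0116).

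None of the 5 transcription factors passed in Astro-D2KO mice, 0 of them at an unadjusted p under 0.05. Olig1 stood at 8.37, 8.05, 8.10 and 8.40 after SE, against 8.48, 8.50, 8.48 and 8.05 under saline. Olig2, its partner and the factor that specifies the lineage, stood at 8.09, 8.01, 8.16 and 8.20 after SE, against 8.20, 8.14, 8.08 and 7.89 under saline. The groups overlapped for both. Sox10, which drives terminal differentiation, stood at 6.72, 6.31, 6.65 and 6.62 after SE, against 6.64, 6.83, 6.89 and 6.70 under saline. Myrf, a membrane-bound factor that switches on myelin genes, stood at 8.21, 7.92, 8.12 and 8.44 after SE, against 8.25, 8.33, 8.00 and 8.38 under saline. The 5 differences, with that of Nkx6-2, a homeodomain factor of myelination, ran from -0.19 for Sox10 to 0.04 for Olig2.

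The count of 8 rested on single arrays. It was 2 (5.41%) without the array labelled Astro-D2KO SE 2, below the 10.8% of all genes then called lower. It was 3 (8.11%) without Astro-D2KO saline 1 or Astro-D2KO saline 2, beside 9.70% and 10.8% of all genes called lower, and 5 (13.5%) without Astro-D2KO saline 3 or Astro-D2KO SE 3, beside 9.74% and 10.2%. The members' share of falls thus lay above or below that of all genes according to which array was left out. Aspa and Car2 kept their calls under 25 of 25 other settings, including each array left out in turn. Leaving out 1 array ended the call of Gpr17 for 6 arrays (all but Astro-D2KO saline 4 and Astro-D2KO SE 1 among those of the comparison), of Mbp for 4 (Astro-D2KO saline 2 and 3, Astro-D2KO SE 2 and 3), and of Mag for 5 (Astro-D2KO saline 1, 2 and 4, Astro-D2KO SE 2 and 3). It ended that of Fa2h for 4 (Astro-D2KO saline 1 and 2, Astro-D2KO SE 2 and 4), of Ugt8a for 3 (Astro-D2KO saline 1 and 3, Astro-D2KO SE 2) and of Plekhb1 for 9 (Astro-D2KO saline 1 to 4, Astro-D2KO SE 2 and 3, Control saline 2 and 3, Control SE 1, the last 3 through the shared estimate of spread). In those fits the differences stayed below 0 and the limma adjusted p-values ran from 0.0515, for Fa2h, to 0.150, for Plekhb1. Without both doubted arrays 12 of 37 members fell, the 8 above with Cspg5, Enpp6, Gpr37 and Mog (32.4%), beside 18.2% of all genes called in either direction and 11.4% called lower.

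**Figure D2:**
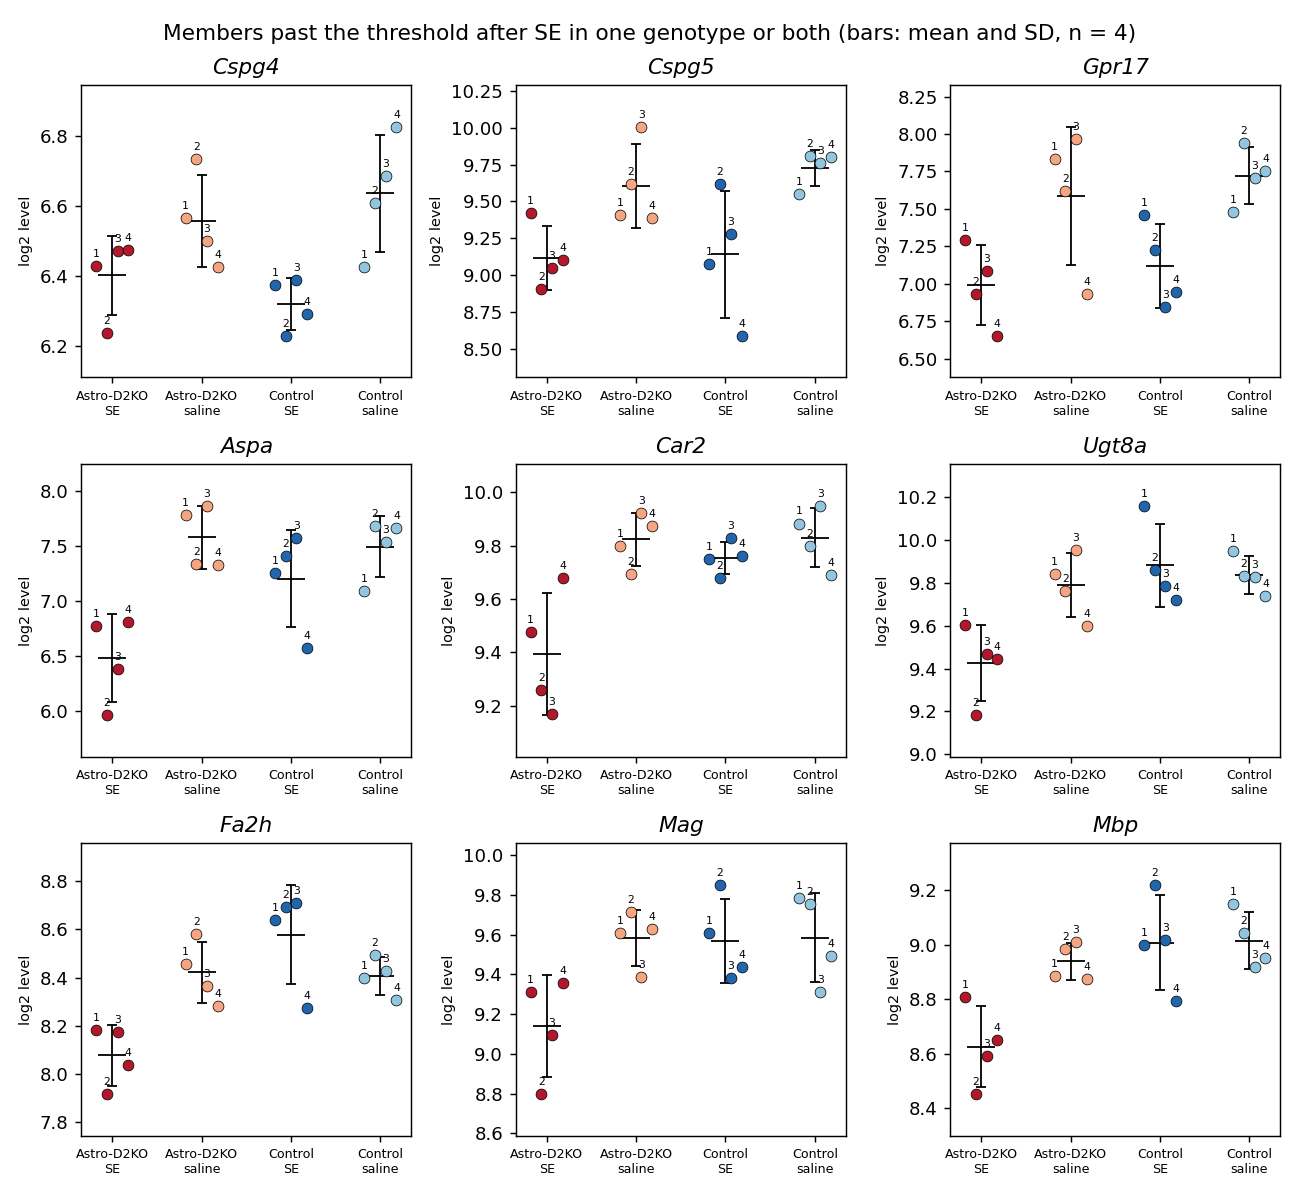
Log2 level (vertical axes) in the 4 arrays of each group, numbered as in the labels, for the members past the threshold after SE in 1 genotype or both, Plekhb1 left out; bars are the mean and SD of 4 arrays. The Astro-D2KO SE arrays of Aspa, from 5.96 to 6.81, lie below all Astro-D2KO saline arrays; the mean of Gpr17 is lower after SE in both genotypes, by 0.60 in each.

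Promoter sequences are shown for the called members that have 1 promoter window in RefSeq (build GRCm38.p6), from 250 bases before the start of transcription to 50 after it, which gave 2 lipid enzymes of mature cells and 1 precursor gene. They belong to Aspa at chr11:73324588-73324887 on the minus strand, Ugt8a at chr3:125938603-125938902 on the minus strand and Cspg4 at chr9:56864854-56865153 on the plus strand, each written 5′ to 3′ along the gene.
Aspa: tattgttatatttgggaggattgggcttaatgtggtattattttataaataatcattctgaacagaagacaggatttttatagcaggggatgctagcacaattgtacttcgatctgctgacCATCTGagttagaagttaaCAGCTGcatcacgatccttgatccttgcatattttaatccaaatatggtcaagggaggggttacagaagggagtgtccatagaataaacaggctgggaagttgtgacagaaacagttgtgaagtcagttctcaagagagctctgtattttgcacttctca
Ugt8a: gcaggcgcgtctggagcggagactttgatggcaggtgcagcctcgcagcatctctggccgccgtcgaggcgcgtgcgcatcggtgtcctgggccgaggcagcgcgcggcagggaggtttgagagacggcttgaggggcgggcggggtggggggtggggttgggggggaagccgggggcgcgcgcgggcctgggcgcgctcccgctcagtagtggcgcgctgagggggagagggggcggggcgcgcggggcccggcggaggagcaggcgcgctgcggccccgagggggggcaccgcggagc
Cspg4: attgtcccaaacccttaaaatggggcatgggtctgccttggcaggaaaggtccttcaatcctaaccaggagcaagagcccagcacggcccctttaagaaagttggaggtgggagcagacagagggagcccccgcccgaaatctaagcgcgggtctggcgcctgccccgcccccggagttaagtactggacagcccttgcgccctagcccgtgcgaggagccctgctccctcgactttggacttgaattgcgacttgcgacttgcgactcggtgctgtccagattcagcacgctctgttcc
Capitals mark matches to 6 short motifs, read on both strands, that factors of this lineage or of neuronal activity can bind: the E-boxes CAGCTG and CATCTG, the SOX cores ACAAAG and ACAATG, the core of the cyclic AMP response element, TGACG, and the AP-1 motif TGANTCA. Aspa held CATCTG 129 bases and CAGCTG 110 bases before its start, and the windows of Ugt8a and Cspg4 held none of the 6. RefSeq windows were found for 27 of the 37 members, 34 windows in all. CATCTG was in 29.4% of the members' windows and 17.2% of all 32851 windows, CAGCTG in 5.88% and 16.3%, ACAAAG in 23.5% and 18.7%, ACAATG in 17.6% and 12.6%, TGACG in 23.5% and 20.8%, and TGANTCA in 0% and 7.81%. These are counts of letters in these windows, given with no test, and short motifs are met in many windows of any kind.

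The second comparison asked the same of Control mice. Of the 37 members 3 fell (8.11%) and none rose, beside 22.1% of all genes called in either direction, 13.7% called lower and 8.42% called higher. Those that fell were on the lists of early stages used here: 2 of the 3 precursor genes, Cspg4 and Cspg5, and 1 of the 3 committed genes, Gpr17. Pdgfra, the other precursor gene, did not pass. None of the 26 mature genes passed in limma, and 1 of them, Ermn, had an unadjusted p under 0.05, beside 33.0% of all genes. The difference was below 0 for 23 of 37 members, with a median of -0.03, beside 53.8% of all genes and a median of -0.02.

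Cspg4 stood at 6.37, 6.23, 6.39 and 6.29 in Control SE mice, against 6.43, 6.61, 6.69 and 6.83 in Control saline mice, 1.24-fold lower with no overlap (limma adjusted p = 0.0209). Gpr17 stood at 7.46, 7.23, 6.84 and 6.95 after SE, against 7.48, 7.94, 7.71 and 7.75 under saline, 1.52-fold lower with no overlap (limma adjusted p = 0.0327). Cspg5 stood at 9.07, 9.62, 9.28 and 8.59 after SE, against 9.55, 9.81, 9.76 and 9.80 under saline, 1.51-fold lower (limma adjusted p = 0.0235). For Cspg5 the second SE array lay within the saline range. Pdgfra, at 8.53, 8.26, 8.57 and 8.36 after SE, against 8.36, 8.55, 8.81 and 8.60 under saline, differed by -0.15 and did not pass.

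These calls too rested on single arrays. Without Control saline 3, or without Control saline 4, no member passed, beside 11.1% and 12.6% of all genes called lower. Without Control saline 2 only Cspg4 did (2.70%), beside 10.7% of all genes called lower. Cspg4 also lost its call without Control SE 2, Cspg5 without Control SE 1 or the array labelled Control SE 4, and Gpr17 without Control SE 3 or the array labelled Control SE 4. Without both the arrays labelled Control SE 4 and Astro-D2KO SE 1, the differences were -0.31 for Cspg4, -0.41 for Cspg5 and -0.54 for Gpr17, none of which passed (limma adjusted p = 0.0513, 0.0629 and 0.0778). In that fit Fa2h was higher after SE in Control mice, by 0.27 (limma adjusted p = 0.0380). It was the 1 member that passed, beside 21.2% of all genes called in either direction. Differences were below 0 for 12 of 37 members, and the median over the members was 0.05.

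Mature genes showed small differences in Control mice. Mbp stood at 9.00, 9.22, 9.02 and 8.79 after SE, against 9.15, 9.04, 8.92 and 8.95 under saline, a difference of -0.01 with an interval of -0.21 to 0.20. Mag stood at 9.61, 9.85, 9.38 and 9.43 after SE, against 9.78, 9.76, 9.31 and 9.49 under saline, and Mog at 9.17, 9.05, 8.81 and 8.39 after SE, against 9.01, 9.13, 9.06 and 9.08 under saline. The groups overlapped for each of the 3. Ugt8a stood at 10.16, 9.86, 9.79 and 9.72 after SE, against 9.95, 9.83, 9.83 and 9.74 under saline, Fa2h at 8.64, 8.69, 8.71 and 8.27, against 8.40, 8.49, 8.43 and 8.31, and Aspa at 7.26, 7.42, 7.57 and 6.57, against 7.09, 7.68, 7.54 and 7.67. The differences of these lipid enzymes were 0.04, 0.17 and -0.29, and the array labelled Control SE 4 was the lowest SE array for each. Car2 stood at 9.75, 9.68, 9.83 and 9.76 after SE, against 9.88, 9.80, 9.95 and 9.69 under saline, a difference of -0.08. Plekhb1 stood at 10.45, 10.58, 10.52 and 10.08 after SE, against 10.41, 10.49, 10.52 and 10.64 under saline. Gpr37, at 9.07, 8.92, 9.28 and 8.58 after SE, against 9.04, 9.10, 9.13 and 9.25 under saline, and Ppp1r14a, at 7.84, 7.97, 7.64 and 7.12 after SE, against 7.86, 8.15, 7.73 and 7.82 under saline, were both lowest in the array labelled Control SE 4.

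Transcription factors did not pass in Control mice. Of the 5, 2 had an unadjusted p under 0.05, 1 of them lower, beside 33.0% of all genes. Olig1 stood at 8.55, 8.64, 8.45 and 8.01 after SE, against 8.67, 8.74, 8.63 and 8.79 under saline, and Olig2 at 8.57, 8.46, 8.54 and 7.89 after SE, against 8.35, 8.46, 8.17 and 8.30 under saline. Sox10 stood at 6.64, 6.67, 7.08 and 6.52 after SE, against 6.57, 6.82, 6.69 and 6.94 under saline. Myrf stood at 8.33, 8.45, 8.57 and 8.23 after SE, against 8.16, 8.08, 8.09 and 8.16 under saline. All SE arrays of Myrf lay above all saline arrays, as they did for Ermn, but neither Myrf (0.27, limma adjusted p = 0.0846) nor Ermn (0.27, limma adjusted p = 0.0556) passed. Among all genes 8.46% had all SE arrays above all saline arrays. Ermn did pass in 4 of the other settings, which were the fit without the 25% dimmest genes, that with a variance trend and robust settings, that without Control SE 2 and that without Astro-D2KO SE 4.

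**Figure D3:**
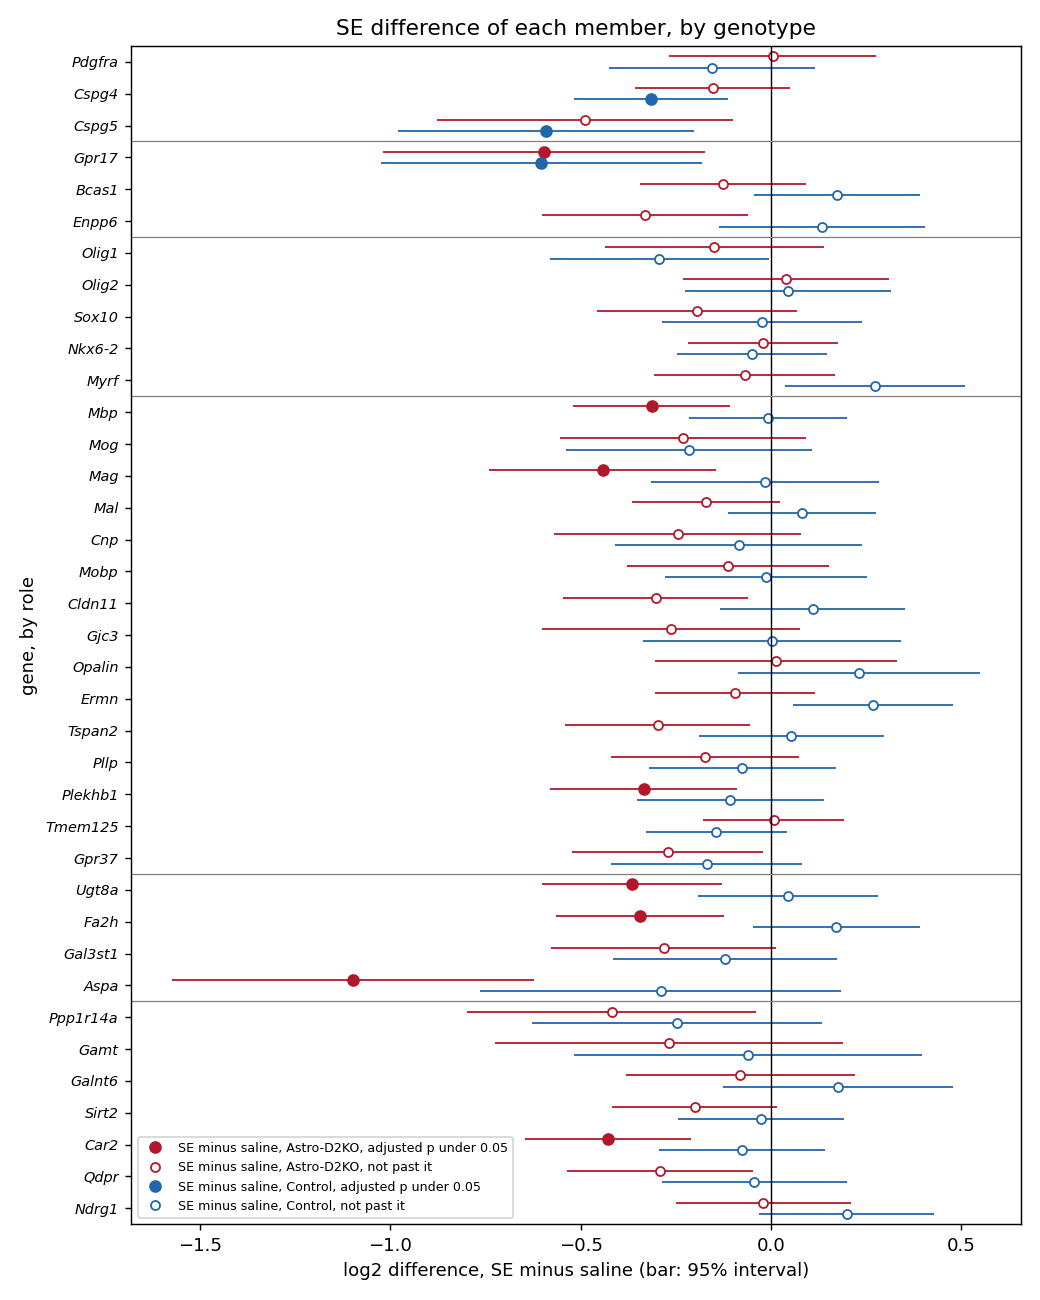
Log2 difference, SE minus saline (horizontal axis), of each of the 37 members (down the page, by role) in Astro-D2KO mice (red, upper of each pair) and in Control mice (blue, lower), with the interval of 95% from the standard error of the fit and 12 residual degrees of freedom. Filled points passed an adjusted p of 0.05; they are 8 in Astro-D2KO mice and 3 in Control mice, all below 0.

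Averaged over both genotypes, 8 of 37 members (21.6%) fell with SE and none rose. Among all genes 32.6% were called in either direction, 20.6% lower and 12.1% higher, so the members' share of falls was near that of all genes. Aspa differed by -0.69 (limma adjusted p = 0.00182), Gpr17 by -0.60 (0.00231), Cspg5 by -0.54 (0.00277), Car2 by -0.25 (0.0100) and Cspg4 by -0.23 (0.0102). These 5 kept their calls under 24 of 24 other settings, each array left out in turn among them. Plekhb1, Gpr37 and Ppp1r14a also passed, with differences of -0.22, -0.22 and -0.33 and limma adjusted p-values of 0.0412, 0.0464 and 0.0468. Their calls ended when 1 array was left out for 11, 12 and 10 of the 16 arrays, in that order, with differences between -0.16 and -0.34 in those fits. The count was 5 (13.5%) without both doubted arrays, beside 19.9% of all genes called lower. It was also 5 without any 1 of Control saline 2, Control saline 4, Control SE 4, Astro-D2KO saline 1, Astro-D2KO saline 2, Astro-D2KO SE 2 and Astro-D2KO SE 3. In those fits 18.8% to 21.0% of all genes were called lower.

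The third comparison asked whether genotype alone altered the lineage. Under saline none of the 37 members differed between Astro-D2KO and Control mice in limma, as none of the 22180 genes did (0%). At an unadjusted p under 0.05 there was 1 member, Olig1, beside 3.99% of all genes. Olig1 stood at 8.48, 8.50, 8.48 and 8.05 in Astro-D2KO saline mice, against 8.67, 8.74, 8.63 and 8.79 in Control saline mice, a difference of -0.33 (limma adjusted p = 0.999). Mobp stood at 10.84, 10.96, 10.78 and 10.88 in Astro-D2KO saline mice, against 11.21, 11.03, 11.01 and 11.14 in Control saline mice. Olig1, Mobp, Mog and Cnp were the 4 members whose Astro-D2KO saline arrays all lay below the Control saline arrays, beside 1.34% of all genes. The median difference over the members was -0.08, with 28 of 37 below 0, while 49.9% of all genes were below 0. Without Astro-D2KO saline 4 the median was -0.04, with 27 of 37 below 0.

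The fourth comparison set the genotypes against each other after SE. No member passed in limma, as no gene of the 22180 did (0%). Yet 35 of the 37 members were below 0, with a median of -0.28, while 47.5% of all genes were below 0, with a median of 0.01. The exceptions were Cspg4 (0.08) and Tmem125 (0.09). At an unadjusted p under 0.05 there were 19 members (51.4%), all lower in Astro-D2KO mice, beside 6.12% of all genes in either direction and 3.13% lower. Of these 17 were mature genes, 2 were committed genes (Enpp6 and Bcas1), and none was a precursor gene or a transcription factor. Without both doubted arrays there were 28, beside 11.3% of all genes: 23 mature genes, the same 2 committed genes and 3 of the 5 transcription factors, Olig1, Olig2 and Myrf, with no precursor gene. Of these arrays Astro-D2KO SE 1 was the highest of its group for 17 members. Control SE 4 was the lowest of its group for 29. Leaving out both moves the group means of such members apart, so the larger counts here and below are not separate support. Members share cells and vary together, so the 19 are not separate observations. The Astro-D2KO SE arrays serve here as in the first comparison, and the 2 sets of differences are not independent.

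For 6 members every Astro-D2KO SE array lay below every Control SE array, beside 1.40% of all genes; among the 3 against 3 arrays left without the doubted ones there were 23 such members, beside 7.80% of all genes. Enpp6 stood at 6.26, 5.75, 5.91 and 6.07 in Astro-D2KO SE mice, against 6.73, 6.50, 6.81 and 6.46 in Control SE mice, 1.55-fold lower with an interval of -0.90 to -0.36 on the log2 scale (limma adjusted p = 0.532). Fa2h, whose arrays are given above, was 1.42-fold lower and Ugt8a 1.37-fold lower, and Mag was 1.35-fold lower, each with the same lack of overlap. Mal stood at 10.88, 10.63, 10.76 and 10.63 in Astro-D2KO SE mice, against 11.23, 11.19, 10.97 and 10.91 in Control SE mice, 1.28-fold lower. For Car2 the groups only just missed each other, since the highest Astro-D2KO SE array and the lowest Control SE array both read 9.68. Mbp (1.30-fold lower), Cldn11 (1.35-fold) and Aspa (1.65-fold) were also below 0, but their groups overlapped. For Mbp this was only between the arrays labelled Astro-D2KO SE 1 (8.81) and Control SE 4 (8.79). For Cldn11 it was only between Astro-D2KO SE 3 (10.39) and Control SE 3 (10.32), and for Aspa at the array labelled Control SE 4.

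Fa2h passed when the array labelled Control SE 4 was left out (-0.60, limma adjusted p = 0.0452) and when it and the array labelled Astro-D2KO SE 1 were both left out (-0.64, limma adjusted p = 0.0278). In the second of these fits 5 of all 22180 genes passed (0.0225%), 35 of 37 members were again below 0, and their median was -0.40. Without the array labelled Astro-D2KO SE 2, the lowest of its group, 34 of 37 were below 0 and the median was -0.21.

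**Figure D4:**
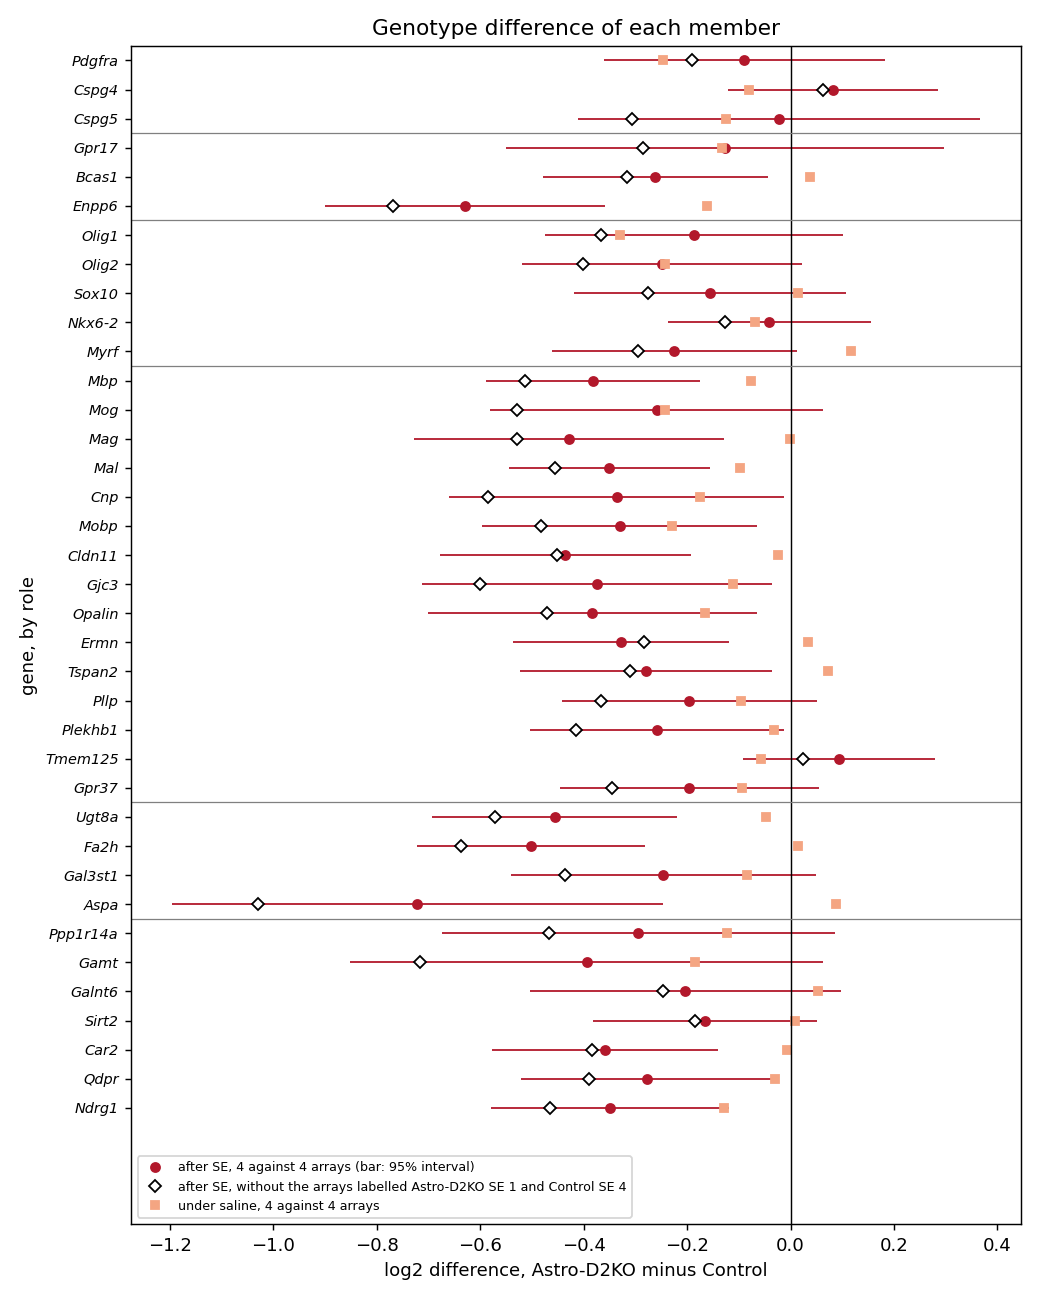
Log2 difference, Astro-D2KO minus Control (horizontal axis), of each member (down the page): after SE with 4 against 4 arrays and its 95% interval (circles and bars), after SE without the arrays labelled Astro-D2KO SE 1 and Control SE 4 (diamonds), and under saline (squares). After SE 35 of 37 circles lie below 0, with a median of -0.28; under saline 28 do, with a median of -0.08.

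Whether SE acted differently in the 2 genotypes was tested directly, as the SE difference in Astro-D2KO mice minus that in Control mice. No member passed, and no gene of the 22180 did (0%). At an unadjusted p under 0.05 there were 12 members, all below 0, beside 4.65% of all genes in either direction and 2.28% below 0. Without both doubted arrays there were 18, all below 0, beside 6.67% of all genes. Fa2h had the smallest p of the members, at -0.52 with an interval of -0.83 to -0.21 (limma adjusted p = 0.998), and Aspa the largest size, at -0.81. Of the 26 mature genes 25 were below 0, while the 3 precursor genes were above 0, at 0.16 for Cspg4, 0.10 for Cspg5 and 0.16 for Pdgfra; without both doubted arrays Cspg5 was below 0, at -0.18. The falls of mature genes in Astro-D2KO mice and of precursor genes in Control mice were therefore not shown to differ between the genotypes. For Gpr17 the difference of the responses was 0.01, with an interval of -0.59 to 0.60, and -0.15 without both doubted arrays.

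Precursor and mature genes were also compared array by array, as the mean over each set of every gene's level minus its own mean over the 16 arrays. The mature mean was -0.10, -0.46, -0.23 and -0.14 in Astro-D2KO SE arrays and 0.07, 0.08, 0.05 and -0.06 in Astro-D2KO saline arrays. It was 0.21, 0.21, 0.12 and -0.18 in Control SE arrays and 0.10, 0.16, 0.05 and 0.11 in Control saline arrays. All Astro-D2KO SE arrays thus lay below all 8 saline arrays, and 3 of the 4 Control SE arrays lay among or above them. The precursor mean was 0.04, -0.34, -0.20 and -0.08 in Astro-D2KO SE arrays and -0.02, 0.08, 0.28 and -0.07 in Astro-D2KO saline arrays. It was -0.11, -0.06, -0.02 and -0.35 in Control SE arrays and 0.01, 0.22, 0.32 and 0.31 in Control saline arrays, so that in Control mice every SE array lay below every saline array. Neither separation held for genes of the same stages that are not members. The mean of 31 further mature genes ran from -0.25 to 0.04 in Astro-D2KO SE arrays. It ran from -0.013 to -0.002 in Astro-D2KO saline and from -0.03 to 0.03 in Control saline arrays. The mean of 11 further precursor genes ran from -0.14 to 0.06 in Control SE arrays, against -0.04 to 0.12 in Control saline arrays.

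The mature mean minus the precursor mean of the same array sets the 2 stages against each other within 1 mouse. It was -0.14, -0.12, -0.03 and -0.06 in Astro-D2KO SE arrays and 0.09, 0.01, -0.22 and 0.01 in Astro-D2KO saline arrays. It was 0.31, 0.28, 0.14 and 0.18 in Control SE arrays and 0.09, -0.06, -0.27 and -0.20 in Control saline arrays. The 4 Control SE arrays, that labelled Control SE 4 included, had the highest values of the 16. The members were chosen with results of these arrays known and the precursor set holds only 3 genes, so these values are given with no test.

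**Figure D5:**
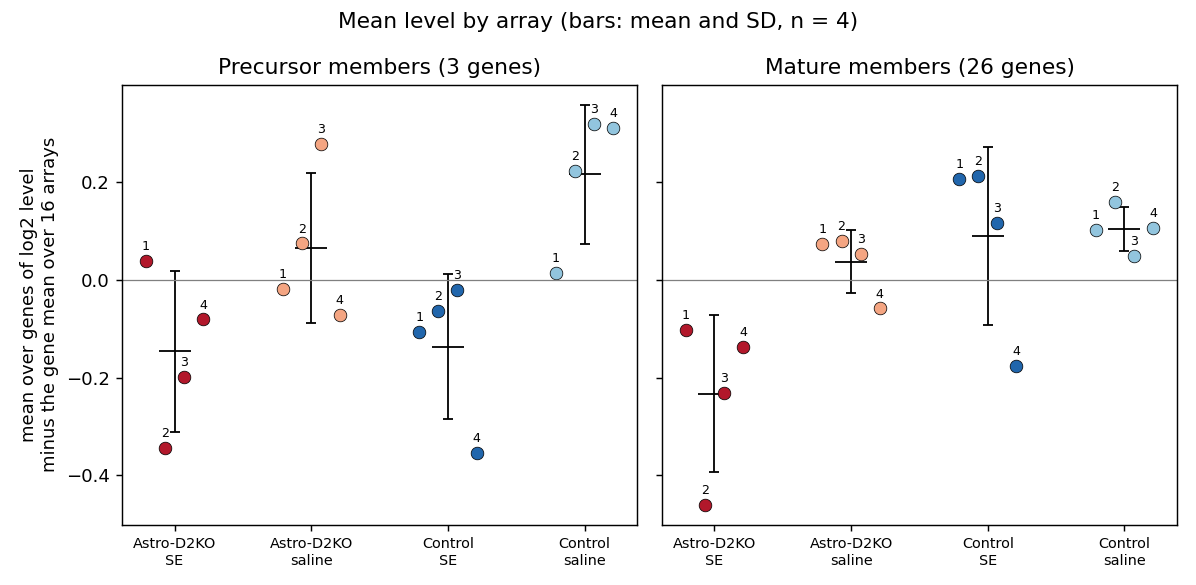
Mean over the 3 precursor genes (left) and over the 26 mature genes (right) of the log2 level minus the gene's mean over 16 arrays (vertical axis), for each array by group; numbers are those of the labels, and bars are the mean and SD of 4 arrays. The mature mean is below 0 in all Astro-D2KO SE arrays, in the array labelled Control SE 4 and in Astro-D2KO saline 4. The precursor mean is below 0 in all Control SE arrays, in Astro-D2KO SE 2, 3 and 4, and in Astro-D2KO saline 1 and 4.

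Other genes of the lineage, from lists that are not members, were measured on the same arrays. Of 10 further genes of the committed and premyelinating stages, 2 rose and 4 fell after SE in Astro-D2KO mice, and 3 rose and 2 fell in Control mice. Rras2, a small GTPase, rose by 1.03 and 1.09 and Fyn, a kinase that acts in myelination, by 0.47 and 0.43, in Astro-D2KO and Control mice. Mycl fell by 0.36 and 0.55 and Itpr2 by 0.31 and 0.28 in the same order, Chn2 (-0.44) and Sema4d (-0.42) fell in Astro-D2KO mice, and Tcf7l2, a Wnt effector of the committed stage, rose in Control mice (0.41). Without both doubted arrays 2 rose and 3 fell in Astro-D2KO mice, and 2 rose and 1 fell in Control mice. Of 11 further precursor genes none passed in Astro-D2KO mice (2 at an unadjusted p under 0.05), and Tnr, tenascin-R, fell in Control mice (-0.37). Tnr and Sox8 fell in Astro-D2KO mice without both doubted arrays, and none passed in Control mice in limma (1 at an unadjusted p under 0.05). Averaged over genotypes Tnr, Sox8 and Ptprz1 fell, by -0.33, -0.27 and -0.21.

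Of 31 further mature genes, 2 rose and 5 fell after SE in Astro-D2KO mice, and 2 rose and none fell in Control mice. Sgk1, a kinase induced by stress hormones, rose by 1.27 in Astro-D2KO mice and 1.13 in Control mice, and Adamts4, a protease, rose by 0.59 and 0.61. Dusp15 fell by 0.64 and Erbb3, a neuregulin receptor, by 0.63 in Astro-D2KO mice, with Padi2 (-0.53), Ttyh2 (-0.42) and Tubb4a (-0.37), which are named because they complete the 5. The median difference over the 31 was -0.07 in Astro-D2KO mice and 0.04 in Control mice. After SE none of the 31 differed between genotypes (10 at an unadjusted p under 0.05), and 30 of 31 were below 0, with a median of -0.18. Without both doubted arrays 2 rose and 7 fell in Astro-D2KO mice, 2 rose and none fell in Control mice, and after SE 26 of 31 were lower in Astro-D2KO than in Control mice, 14 of them at an unadjusted p under 0.05.

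Among 26 extracellular signals, receptors and their effectors that act on the lineage, 3 rose and 2 fell in Astro-D2KO mice, and 6 rose and 3 fell in Control mice. Bdnf, a neurotrophin made by active neurons, rose by 2.02 and 2.01, and Id2, which holds back differentiation, by 0.81 and 0.73, in Astro-D2KO and Control mice. Erbb4, a neuregulin receptor, fell by 0.54 and 0.42. Lgi3, a secreted ligand, fell by 0.71 in Astro-D2KO mice. Nrg1, a neuregulin, rose by 0.64 and Gas6, a ligand of receptor kinases that favours myelination, fell by 0.47 in Control mice. With both doubted arrays left out 4 rose and 2 fell in Astro-D2KO mice, and 6 rose and 1 fell in Control mice.

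Markers of other cells moved with SE as well. Of 9 microglial genes 3 fell in each genotype, P2ry12 by 1.14 and 1.02 and Selplg by 0.98 and 0.83, in Astro-D2KO and Control mice, with Csf1r (-0.44) in Astro-D2KO and Cx3cr1 (-0.36) in Control mice. The microglial mean, taken as for the members, lay between -0.33 and 0.00 in Astro-D2KO SE and 0.19 and 0.23 in Astro-D2KO saline arrays. It lay between -0.32 and 0.02 in Control SE and 0.01 and 0.27 in Control saline arrays. All Astro-D2KO SE arrays lay below all 8 saline arrays, as for the mature genes, so that separation was not particular to the members. Of 10 neuronal genes 3 rose and 1 fell in Astro-D2KO mice and 2 rose and 2 fell in Control mice; the neurofilament genes Nefl (0.77 and 0.86) and Nefm (0.42 and 0.70) were among those that rose in both. The mean of the 10, taken as for the members, lay between -0.02 and 0.07 in Astro-D2KO SE arrays, above the -0.06 to -0.03 of Astro-D2KO saline arrays, and between -0.04 and 0.10 in Control SE arrays, against -0.03 to 0.02 in Control saline arrays. Of 10 astrocyte genes 1 rose and 1 fell in Astro-D2KO mice and 1 rose and 2 fell in Control mice: Sox9 rose by 0.59 and 0.58, Fgfr3 fell by 0.74 and 0.87, and Slc1a2 fell by 0.26 in Control mice. The astrocyte mean lay between -0.03 and 0.01 in Astro-D2KO SE, -0.11 and 0.09 in Astro-D2KO saline, -0.07 and 0.08 in Control SE and -0.07 and 0.11 in Control saline arrays. The mean of 8 choroid plexus genes ran from -0.67 to 1.13 in Astro-D2KO SE, -0.33 to 0.91 in Astro-D2KO saline, -0.52 to 0.72 in Control SE and -0.58 to 1.45 in Control saline arrays, and that of 10 thalamic genes from -0.09 to 0.10, -0.19 to 0.19, 0.04 to 0.25 and -0.14 to 0.03 in the same order of groups. None of the 8 choroid plexus genes passed in limma after SE in either genotype (0 at an unadjusted p under 0.05 in both). Of 10 fibroblast genes none passed in Astro-D2KO mice (0 at an unadjusted p under 0.05), and Slc6a13 fell in Control mice (-0.43), where 3 had an unadjusted p under 0.05. Of 10 thalamic genes 3 rose and 1 fell in Astro-D2KO mice and 1 rose in Control mice, and of 10 pericyte and smooth muscle genes 1 fell, against 1 that rose and 2 that fell. The pericyte and smooth muscle mean lay between -0.16 and -0.03 in Astro-D2KO SE and -0.08 and 0.16 in Astro-D2KO saline arrays. In Control mice that mean lay between -0.18 and 0.09 after SE and between 0.03 and 0.21 under saline. Of 4 measured Schwann cell genes 1, the activity-induced Egr2, rose in both genotypes. When both doubted arrays were left out the thalamic genes gave 2 that rose and none that fell in Astro-D2KO mice, and the microglial genes gave 2 that fell in Control mice. The part that these shifts had in the members' differences was not tested.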

How the data were processed

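Hippocampal RNA of 16 mice was hybridised to 16 Affymetrix arrays. The deposited table holds 1 log2 value per probe set and array, made by the authors with RMA, per the submitters' processing notes; RMA as a method corrects background, makes the arrays' distributions alike and summarises probes by probe set, so a shift shared by all genes cannot be seen. The log base is not written and was inferred from values between 1.70 and 13.79. Arrays count no reads; their number limits precision.

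Of 41345 probe sets 23521 carried 1 symbol in the platform annotation; the probe set with the highest mean stood for each of 22180 genes, with no filter on level. Limma 3.58.1 (R 4.3.3) fitted 1 mean per group, with eBayes defaults and Benjamini-Hochberg adjustment over all genes in each of 6 contrasts, at 0.05. The fit was run on simulated data with independent normal noise for each gene, which cannot test counts of members that vary together. Errors of differences are standard errors of the fit, and intervals of 95% use its 12 residual degrees of freedom without those that eBayes adds. Dio2 was tested by exact permutation.

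Members and lists were chosen with earlier results of these data known. All members are named; array values are given for Pdgfra, Cspg4, Gpr17, Olig1, Olig2, Sox10, Myrf, Mbp, Mog, Mag and Ugt8a, for members past 0.05 in any contrast, and, chosen after their values were seen, for Enpp6, Mal and Mobp. Of each other list up to 4 genes per contrast with the largest changes past 0.05 are named. Nothing in the labels says that mice of a group came from separate litters or days, so p-values measure the spread between these arrays. Alternatives covered scaling, probe sets, dim genes, the variance model, array weights, the groups fitted, the replicate number as a block, each array left out in turn and both doubted arrays left out. Genome positions of genes were not used beside the RefSeq promoter windows.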

Additional observations from a re-analysis of the deposited data

Results flagged for a closer look

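In a group of 4 arrays, the highest or lowest was marked where its gap to the nearest of the others took more of the group's range than the 95% critical value of Dixon's test. Chance marks about 1 group in 20, and 152 groups were looked at, of which 9 were marked. Astro-D2KO saline 4 was low for 4 members: Olig1, the lineage factor, at 8.05, with the other 3 arrays between 8.48 and 8.50; Mog at 8.57, with the others between 8.89 and 8.93; Cnp at 7.83, with the others between 8.18 and 8.22; and Gjc3 at 9.39, with the others between 9.74 and 9.80. The array labelled Control SE 4 was low for 3 members. They were Olig2 at 7.89, with the others between 8.46 and 8.57, Fa2h at 8.27, with the others between 8.64 and 8.71, and Ndrg1 at 9.15, with the others between 9.46 and 9.50. Gpr37 stood at 8.58 in the array labelled Astro-D2KO SE 2, with the others between 8.81 and 8.84. Dio2, the targeted gene, stood at 8.91 in the array labelled Astro-D2KO SE 1, with the other Astro-D2KO SE arrays between 7.03 and 7.17.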

How the results depend on the processing

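No member whose difference passed changed direction under any alternative. The 19 calls of members (a member in a contrast) were refitted under 467 alternatives and lost under 92, and 17 of 203 member differences that had not passed did so under at least 1 alternative (48 fits). The count of members called after SE in Astro-D2KO mice was 8, was 15 with array weights (40.5%, beside 14.6% of all genes called lower), and ran from 2 to 11 with 1 array left out (5.41%, beside 10.8%, without Astro-D2KO SE 2, and 29.7%, beside 13.3%, without Control SE 4). In Control mice it was 3 and ran from 0 to 4 with 1 array left out. It was 0 without Control saline 3 or Control saline 4, beside 18.3% and 20.2% of all genes called in either direction. It was 4 without Astro-D2KO SE 4, beside 22.2%, and 1 without both doubted arrays, beside 21.2%. Averaged over genotypes it was 8 and ran from 5 to 10 with 1 array left out. It was 10 (27.0%) without Control SE 1 or Control SE 2, beside 19.4% and 20.1% of all genes called lower. Where it was 5 (13.5%), 18.8% to 21.0% of all genes were called lower. It was 5 without both doubted arrays, beside 19.9%. Between genotypes after SE it was 0 and ran from 0 to 1 with 1 array left out. It was 1 without Control SE 4, beside 0.00902% of all genes, and 1 without both doubted arrays, beside 0.0225%. The counts between genotypes under saline and for the genotype difference in the response were 0 under every alternative tried. The cause of these shifts was not tested. For the Dio2 level, Astro-D2KO versus Control under saline, the difference ran from -1.46 to -1.27 with 1 array left out, where 3 arrays against 4 cannot give an exact permutation p below 0.0571. Another scaling or another choice of probe set moved the group means of the precursor and mature sets by less than the spread between arrays. For the Dio2 level, taking the mean of its 2 probe sets gave -0.72 under saline and -0.77 after SE. Bcas1 and Ndrg1 each have a second, dimmer probe set (means of 4.62 and 4.23 over the arrays), whose SE differences were -0.09 in Control mice for Bcas1, against 0.17 in the one used, and 0.17 in Astro-D2KO mice for Ndrg1, against -0.02.

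The replicate numbers were checked as a pairing. Between arrays of the same number in different groups, 24 correlations ran from -0.29 to 0.34, and 4 were above 0.1. Arrays of different numbers were not compared, so whether a number marks a shared litter or day was not settled. With the replicate block 7 members (18.92%) were called lower after SE in Astro-D2KO mice, beside 11.45% of all genes. In Control mice 3 members (8.11%) were, beside 12.64% of all genes. Averaged over genotypes 6 (16.22%) were, beside 19.70%. The Control and averaged shares thus lay below those of all genes. In the other 3 contrasts the count was 0, for the members and for all genes. With 4 arrays a group, the intervals of the differences within a genotype reach more than 0.2 log2 units to either side of the estimate for most members.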

Other observations

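The members varied together within groups. With the group means taken out, the median correlation between pairs of members over the 16 arrays was 0.41, and 88.9% of the 666 pairs were above 0. It was 0.56 among the 4 lipid enzymes, 0.46 among the 15 sheath proteins and 0.43 among the 5 transcription factors. Among other lists it was 0.16 for the 31 further mature genes, 0.18 for the 11 further precursor genes, 0.07 for the 10 further committed genes and -0.01 for the 26 signals. Lists of other cells gave 0.90 for choroid plexus, 0.54 for fibroblasts, 0.32 for Schwann cells, 0.30 for microglia, 0.16 for thalamus, 0.12 for pericytes and smooth muscle, 0.10 for astrocytes and -0.06 for neurons. The points share arrays and their processing, and the values are descriptions with no test. Averaged over genotypes, Nfasc, a cell adhesion protein of nodes, and Septin4, a filament protein of myelin, also fell with SE, by 0.19 and 0.26 (limma adjusted p = 0.0487 and 0.0245); both were chosen after their values were seen.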
